A study of Mus musculus with 6 samples.

Results

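The genes described here are the Wnt ligands with their receptors, co-receptors, secreted modulators and intracellular mediators in the inguinal white fat (iWAT) of mice that carry an *Hlx* transgene. They were found by symbol, as entries of the expression table named *Wnt*, *Fzd*, *Sfrp*, *Dkk* or *Rspo* with any suffix, or named *Lrp5*, *Lrp6*, *Axin1*, *Axin2*, *Lef1*, *Tcf7*, *Tcf7l1*, *Tcf7l2*, *Ctnnb1*, *Wif1* or *Frzb*. This gave 55 of the 19445 gene entries, for 53 genes, since *Wnt5a* and *Wnt5b* are each listed on 2 entries of the same locus. RNA-Seq was done on iWAT of 3 transgenic mice (TG) and 3 littermate controls (WT), all labelled as 12-week-old males, with 1 library per mouse. The TG mice carry a full-length *Hlx* cDNA behind the 5.4-kb promoter of *aP2* (*Fabp4*), which is active in brown and white fat. The founders came from hybrid embryos of C57BL/6 and SJL and the lines were backcrossed to C57BL/6 for at least 3 generations, and the control mice carry no transgene. Which transgenic line was sequenced is not given in the sources used here.

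Wnt proteins are secreted, lipid-modified ligands that bind a Frizzled receptor together with Lrp5 or Lrp6 on the receiving cell. The signal stops a complex built on Axin from destroying β-catenin, which then enters the nucleus and acts with TCF and LEF factors on target genes. Secreted frizzled-related proteins (Sfrp), Wif1 and Frzb capture the ligands, several Dickkopf (Dkk) proteins block the co-receptor, and R-spondins raise the number of receptors at the surface. In fat this pathway is best known for holding preadipocytes in an undifferentiated state.

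Expression is given as FPKM, the read count of a gene scaled to the length of its transcripts and to the mapped reads of the library, which can be compared between genes. Absolute depth is unknown, and the steps between values under 0.3 FPKM put the relative depth of the mice between 0.701 and 1.43, lowest in TG replicates 1 and 3. *Hlx* had 96.2 ± 15.3 FPKM in TG and 7.45 ± 0.637 FPKM in WT iWAT (SD, n = 3 mice each), so the genotypes followed the labels. The labelled sex did not, since *Xist* was between 20.2 and 33.6 FPKM and all 28 Y-linked loci were listed at 0 in each of the 6 samples. All 8 adipocyte markers checked were expressed, with a sum between 26000 and 36400 FPKM that was mostly *Fabp4*. Limma called 1 of these 8 lower in TG iWAT, *Adipoq* (log2 difference -0.85, adjusted p = 0.0172), and 0 higher. The median log2 difference of the 8 was 0.014. Of 7 brown adipocyte markers 6 were higher in TG iWAT, of 5 macrophage markers 4 were lower, and of 7 endothelial markers *Emcn* and *Kdr* were higher and *Cldn5* was lower. The part of these cells in the levels of the Wnt genes was not tested. Genes of other cells were also present, with summed levels between 251 and 439 FPKM for 12 T lymphocyte markers and between 254 and 530 FPKM for 8 B lymphocyte markers. The 9 epithelial markers summed to 138, 197 and 285 FPKM in TG and 322, 267 and 230 FPKM in WT iWAT. Limma called 0 of them, and the part of epithelial cells in the Wnt genes was not tested. In bulk tissue, fewer cells of a type and less RNA per cell cannot be told apart.

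Members were tested together with all other loci whose FPKM averaged above 1 in TG or in WT iWAT, 11692 in number, with limma on log2(FPKM + 1) and Benjamini-Hochberg adjustment over all of them. Log2 differences (log2 fold changes) are TG minus WT on this scale, which understates changes of low genes. Of the 55 member entries, 32 passed this filter, and 2 of them fell at an adjusted p under 0.05, *Tcf7l1* and *Dkkl1*. The number of members called lower was 0 without WT replicate 1 or WT replicate 2. It was 1 without TG replicate 3 (*Dkkl1*) or WT replicate 3 (*Wnt5a*), and 3 without TG replicate 2 (*Sfrp2*, *Sfrp4* and *Tcf7l1*). No member rose at that threshold, and 5 entries had an unadjusted p under 0.05. The called members made up 6.25% of those tested, where 18.6% of all tested loci were called, 11.6% higher and 7.03% lower. Called loci were fewer at low levels, with 11.6% of the loci whose mean FPKM was between 1 and 5 and 21.1% of those over 5, against 1 of 14 and 1 of 16 members in these ranges. The difference was positive for 10 entries and negative for 22, with a median of -0.10, where the median of all tested loci was -0.01. The TG and WT values did not overlap at 6 entries, or 18.8%, where 42.9% of all tested loci did not. The share of such loci was 33.4% with a mean FPKM between 1 and 5 and 46.1% over 5, against 3 of 14 and 3 of 16 members. For a single gene, 3 mice against 3 cannot give an exact permutation p under 0.1, and all 6 entries without overlap had this value.

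**Figure D1:**
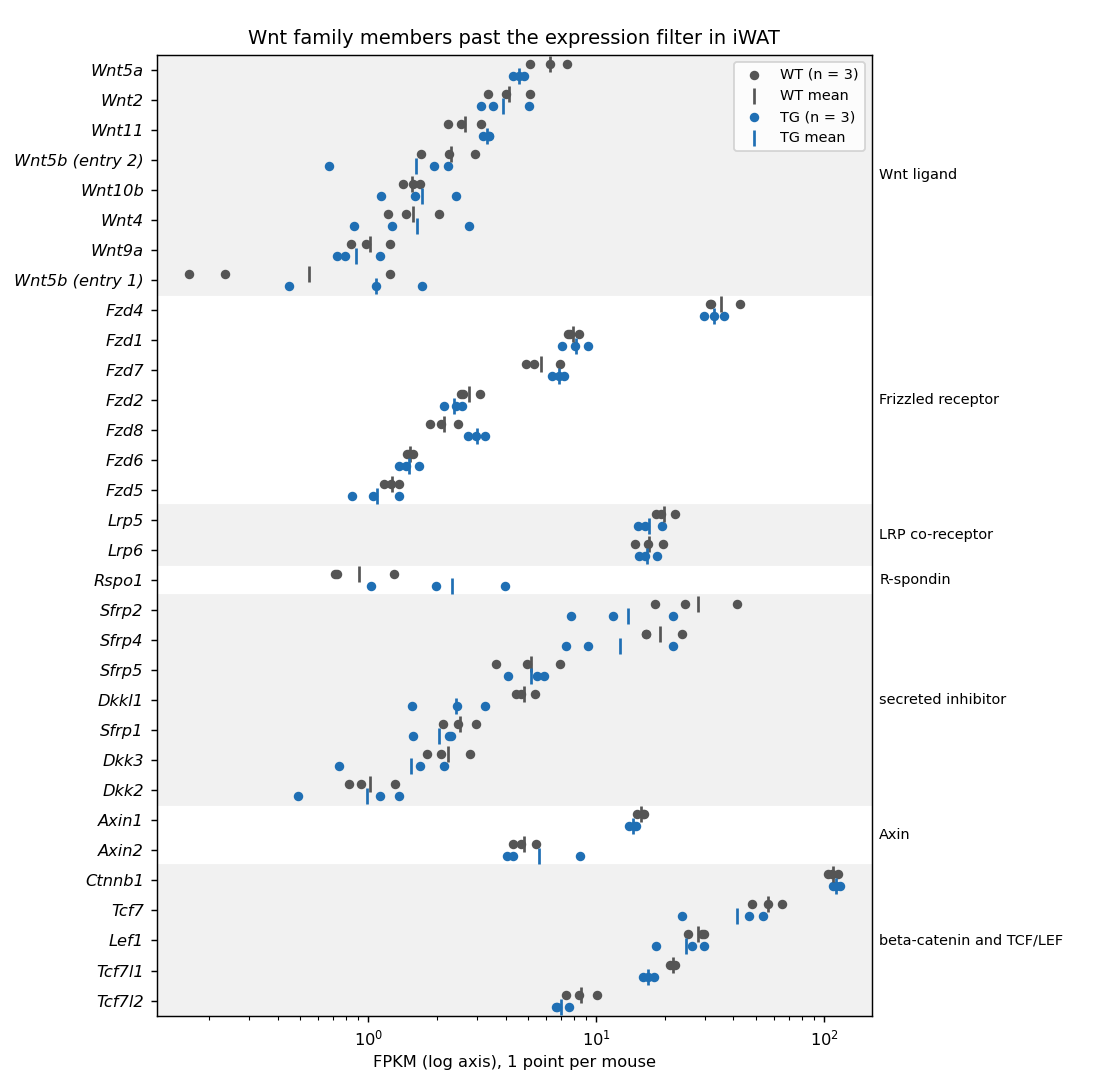
FPKM of the 32 Wnt family entries past the expression filter, on a log axis, with 1 point per mouse (grey, WT; blue, TG), a tick at each group's mean and the entries grouped by role. *Ctnnb1* sits highest, at 113 FPKM in TG and 109 FPKM in WT iWAT, and the groups overlap at most entries.

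The ligands were expressed at low levels. Of 19 *Wnt* genes on 21 entries, 7 genes on 8 entries passed the filter and none was called in either direction. Summed over all entries, *Wnt* RNA was 19.95, 22.66 and 21.72 FPKM in TG replicates 1 to 3 and 22.63, 23.76 and 23.19 FPKM in WT replicates 1 to 3, with a small overlap between TG replicate 2 and WT replicate 1. *Wnt5a*, a ligand of the β-catenin-independent branch, was the most abundant. Its main entry had 4.31, 4.58 and 4.81 FPKM in TG and 6.27, 7.44 and 5.11 FPKM in WT iWAT. Every TG value was lower than every WT value, and the log2 difference was -0.37 (standard error 0.13, limma adjusted p = 0.0824). Without WT replicate 3 it was -0.49, with an adjusted p of 0.0432, and without WT replicate 2 it was -0.26, with an adjusted p of 0.203. The other entry of *Wnt5a* held 1.19 FPKM in TG replicate 1, 0.970 FPKM in WT replicate 3 and almost nothing elsewhere, so transcripts of this gene were divided unevenly between the entries. With both entries summed, which was chosen after the values were seen, *Wnt5a* had 5.50, 4.58 and 4.81 FPKM in TG and 6.27, 7.44 and 6.08 FPKM in WT iWAT (log2 difference -0.35, adjusted p = 0.0594, limma). GENCODE places an antisense RNA over exons of *Wnt5a*, and the TruSeq kit used does not keep strand, so reads of the pair cannot be told apart.

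*Wnt5b*, a close relative of *Wnt5a*, differed between its entries. One had 1.72, 0.448 and 1.08 FPKM in TG and 0.235, 1.24 and 0.163 FPKM in WT, and the other 0.670, 1.94 and 2.24 FPKM in TG and 2.94, 2.25 and 1.70 FPKM in WT. The first was higher and the other lower in TG by log2 differences of 0.45 and -0.37 (adjusted p = 0.352 and 0.353, limma), and their sum gave -0.04 (adjusted p = 0.902). The sum was 2.39, 2.39 and 3.31 FPKM in TG and 3.17, 3.49 and 1.87 FPKM in WT iWAT, with overlapping groups.

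*Wnt11*, another ligand best known for signalling without β-catenin, had 3.39, 3.40 and 3.17 FPKM in TG and 2.25, 2.55 and 3.12 FPKM in WT iWAT. The TG values were all above the WT values, by a narrow margin at WT replicate 3, and the log2 difference was 0.25 (95% interval -0.01 to 0.52, adjusted p = 0.156, limma). *Wnt10b*, the ligand best known for restraining fat cell differentiation, had 1.72 ± 0.644 FPKM in TG and 1.56 ± 0.135 FPKM in WT iWAT (SD, n = 3 mice each). The interval of its log2 difference reached from -0.36 to 0.49, so neither a fall nor a rise of this size was detectable. *Wnt2*, *Wnt4* and *Wnt9a* had log2 differences between -0.10 and -0.02, with overlapping groups. The remaining *Wnt* genes, among them *Wnt1*, *Wnt3* and *Wnt6*, stayed under the filter, and *Wnt3a* was listed at 0 in all 6 samples. *Wnt16* was the *Wnt* gene under the filter whose groups did not overlap, with 0.0717, 0.202 and 0.0740 FPKM in TG and 0.489, 0.453 and 0.231 FPKM in WT iWAT (adjusted p = 0.0701 when no filter was used, limma).

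The proximal promoters of the called members and of *Wnt11* are shown with their base composition and short motifs. Each is the 250 bases upstream of a RefSeq transcript start on GRCm38.p6, the build of the files (mm10), written 5′ to 3′ on the gene's strand. Capitals mark matches on either strand. The letters searched were CTTTGA for the core of a TCF/LEF site and GGGCGG for a GC box, and further TATAAA for a TATA box and CCAAT for the box of that name. *Tcf7l1* lies on the minus strand at chr6:72789046-72789295, *Dkkl1* on the minus strand at chr7:45211884-45212133 and *Wnt11*, for the start of the 2 listed that holds a TATA box, on the plus strand at chr7:98834862-98835111.
Tcf7l1: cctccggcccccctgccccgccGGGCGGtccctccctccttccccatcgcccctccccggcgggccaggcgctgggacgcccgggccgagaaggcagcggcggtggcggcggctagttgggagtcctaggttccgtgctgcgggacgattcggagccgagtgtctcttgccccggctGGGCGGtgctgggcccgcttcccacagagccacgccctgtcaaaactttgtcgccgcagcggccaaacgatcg
Dkkl1: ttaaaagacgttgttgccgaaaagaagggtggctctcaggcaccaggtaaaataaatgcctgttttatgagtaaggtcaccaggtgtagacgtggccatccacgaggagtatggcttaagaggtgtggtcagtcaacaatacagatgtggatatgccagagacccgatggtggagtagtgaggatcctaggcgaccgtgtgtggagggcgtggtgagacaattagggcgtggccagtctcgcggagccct
Wnt11: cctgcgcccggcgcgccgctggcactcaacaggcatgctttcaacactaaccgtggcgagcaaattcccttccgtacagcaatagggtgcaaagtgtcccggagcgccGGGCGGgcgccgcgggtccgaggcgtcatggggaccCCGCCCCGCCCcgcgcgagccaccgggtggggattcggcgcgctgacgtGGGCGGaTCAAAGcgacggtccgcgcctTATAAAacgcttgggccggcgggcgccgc

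The *Tcf7l1* promoter had 73.6% G and C and 29 CpG, with 2 GC boxes. The *Dkkl1* promoter had 52.4% G and C and 11 CpG, with none of these motifs. In GENCODE the 5′ end of *Dkkl1* is chr7:45212147 and that of *Tcf7l1* is chr6:72789254. All of the printed *Dkkl1* stretch and most of that of *Tcf7l1* thus lie inside the GENCODE gene. The printed *Wnt11* promoter had 70.8% G and C and 37 CpG, with 4 GC boxes, of which 2 overlap by 1 base. It holds the TCF/LEF core on the minus strand between a GC box and the TATA box. The promoter of the other listed *Wnt11* start, at chr7:98838595-98838844, had 56.8% G and C and 16 CpG, with none of these motifs. Promoters were found for 36 of the 53 member genes, 45 in all, with a median of 66.8% G and C against 52.4% over all 32851 promoters. A GC box was present in 73.3% of the member promoters and 32.7% of all promoters, and a CCAAT box in 24.4% and 33.8%. A TATA box was present in 9 of the 45 member promoters and 12.4% of all promoters. The TCF/LEF core was in 13.3% of the member promoters, those of *Dkk1*, *Frzb*, *Fzd1*, *Lef1*, *Wnt11* and *Wnt5b*, and in 13.8% of all promoters. A match says only that these letters are present, and the motif shares are given without a test.

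The Frizzled receptors were carried by *Fzd4*, which held between 54.0% and 67.2% of the summed Frizzled FPKM of each mouse. *Fzd4*, which also serves as the receptor for norrin in blood vessels, had 36.2, 33.0 and 29.6 FPKM in TG and 31.6, 42.8 and 31.8 FPKM in WT iWAT. The groups overlapped and the log2 difference was -0.09 (95% interval -0.42 to 0.23, adjusted p = 0.662, limma). *Fzd1* and *Fzd7* followed, at 8.13 ± 1.08 and 6.83 ± 0.384 FPKM in TG and 7.88 ± 0.474 and 5.72 ± 1.05 FPKM in WT (SD, n = 3 mice each), and did not pass the test. The sum over the 10 Frizzled genes was between 54.9 and 60.1 FPKM in TG and between 54.6 and 63.7 FPKM in WT iWAT.

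Among the Frizzled genes past the filter, the groups did not overlap at *Fzd8*. It had 3.24, 2.74 and 2.97 FPKM in TG and 2.47, 1.86 and 2.09 FPKM in WT iWAT. Its log2 difference was 0.35 (standard error 0.11, adjusted p = 0.0741, limma), which missed the threshold. The adjusted p was 0.0451 with sample weights, which limma estimated from the expression values themselves. *Fzd2*, *Fzd5* and *Fzd6* had log2 differences between -0.15 and -0.01 with overlapping groups, and *Fzd3*, *Fzd9* and *Fzd10* stayed under the filter. *Fzd3* was lower in every TG mouse, at 0.440, 0.528 and 0.540 FPKM against 0.658, 0.634 and 0.617 FPKM in WT (adjusted p = 0.122 with no filter, limma). *Fzd9* was higher in every TG mouse, at 0.0549, 0.326 and 0.0567 FPKM against 0.0208, 0.0416 and 0.0392 FPKM in WT (adjusted p = 0.361 with no filter, limma).

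The co-receptors *Lrp5* and *Lrp6* were present at like levels. *Lrp5* had 17.0 ± 2.12 FPKM in TG and 19.9 ± 2.04 FPKM in WT, and *Lrp6* had 16.7 ± 1.57 and 17.1 ± 2.49 FPKM (SD, n = 3 mice each). Their log2 differences were -0.21 (95% interval -0.48 to 0.06) and -0.02 (-0.31 to 0.26), with adjusted p of 0.226 and 0.900 (limma).

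Among the R-spondins, *Rspo1* passed the filter. It had 1.03, 1.97 and 3.98 FPKM in TG and 1.29, 0.730 and 0.712 FPKM in WT iWAT. TG replicate 1 lay below WT replicate 1, while TG replicates 2 and 3 were above all controls, and the log2 difference of 0.72 had an interval from -0.03 to 1.46 (adjusted p = 0.153, limma). Its size depended on single mice, with values from 0.37 to 1.02 when each was left out in turn. With the estimated sample weights (0.474, 0.886 and 1.885 for TG replicates 1 to 3) the log2 difference was 1.03 (adjusted p = 0.0423, limma). *Rspo4* was under the filter, at 0.217, 0.181 and 0.324 FPKM in TG and 0.0366, 0 and 0 FPKM in WT iWAT. All TG values were above the WT values, and without a filter its adjusted p was 0.0166 (limma), the one member called higher in that setting. *Rspo3* went the other way, at 0.143, 0.164 and 0.172 FPKM in TG and 0.217, 0.265 and 0.273 FPKM in WT (adjusted p = 0.0665 with no filter, limma). *Rspo2* was listed at 0 in several samples. At these levels the R-spondins rest on few reads.

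**Figure D2:**
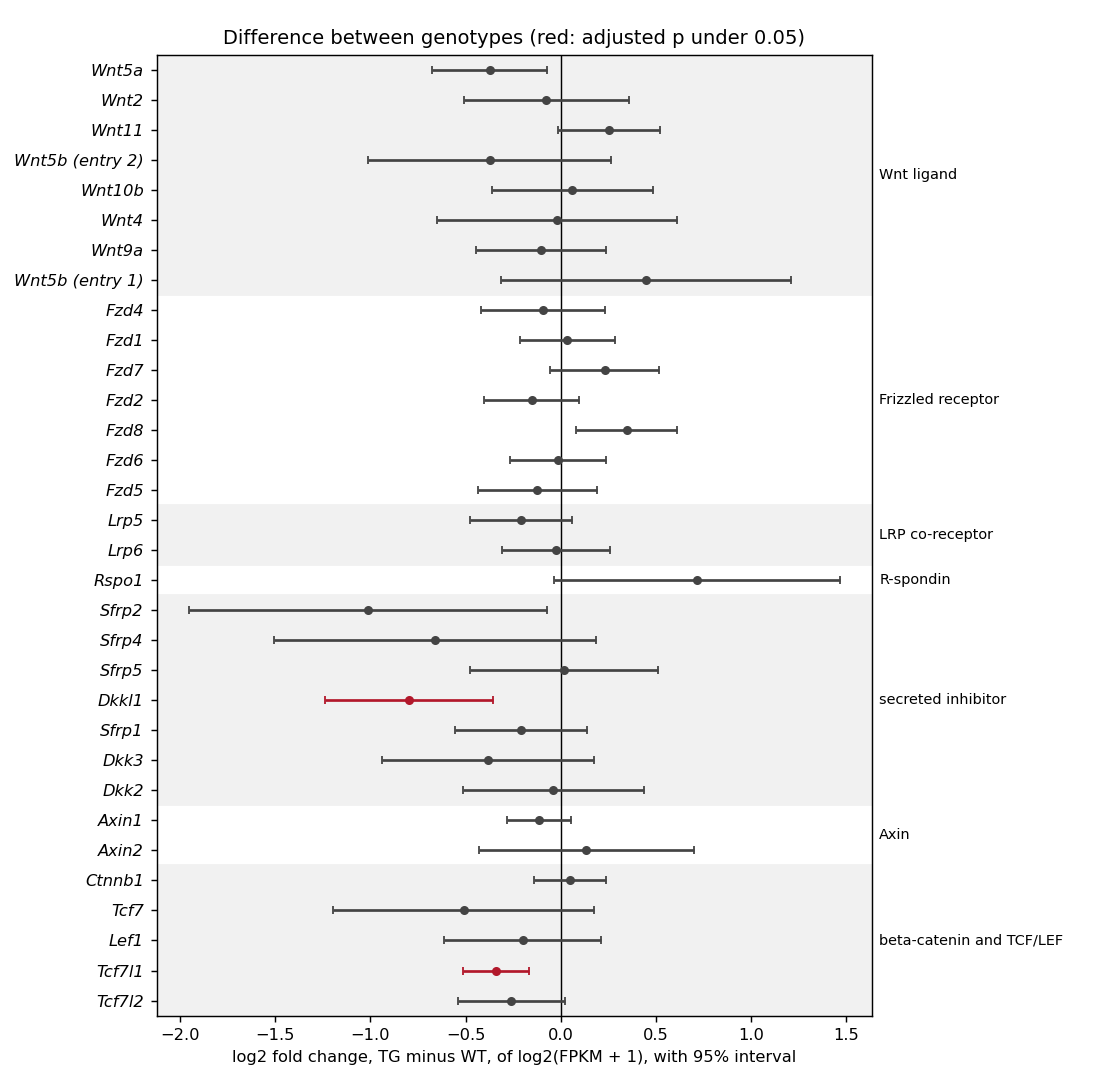
Log2 fold change (TG minus WT, of log2(FPKM + 1)) of the 32 entries with its 95% interval from limma, n = 3 mice per genotype, grouped by role. Red marks the called entries, *Dkkl1* at -0.80 and *Tcf7l1* at -0.34.

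The secreted inhibitors held the widest differences. Of 11 genes placed in this class by symbol, 7 passed the filter, 6 of them with a lower mean on the log scale in TG iWAT. Only *Dkkl1* was called. *Dkkl1* (Soggy), on chromosome 7 of mm10 from 45207525 to 45211883, encodes a secreted protein related to Dkk3 that is best known from the testis and lacks the cysteine-rich domains with which other Dickkopf proteins block Lrp5 and Lrp6. It had 3.25, 2.46 and 1.56 FPKM in TG and 4.70, 5.38 and 4.43 FPKM in WT iWAT. Every TG mouse was below every control. The log2 difference was -0.80 (standard error 0.19, adjusted p = 0.0280, limma), a ratio of means of 0.501. It missed the threshold in 5 of 15 other settings, with adjusted p of 0.0523 without TG replicate 2, 0.0684, 0.0849 and 0.0689 without WT replicates 1, 2 and 3, and 0.0544 with no filter.

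*Sfrp2* and *Sfrp4*, secreted decoys made by stromal cells, were the most abundant inhibitors. *Sfrp2* had 7.72, 21.6 and 11.8 FPKM in TG and 41.4, 18.1 and 24.6 FPKM in WT iWAT. TG replicate 2 exceeded WT replicate 2, and the log2 difference of -1.01 had an interval from -1.95 to -0.07 and an adjusted p of 0.117 (limma). *Sfrp4* had 7.39, 21.6 and 9.19 FPKM in TG and 16.6, 16.6 and 23.7 FPKM in WT iWAT, again with TG replicate 2 among the controls (log2 difference -0.66, adjusted p = 0.228, limma). Without TG replicate 2, *Sfrp2* and *Sfrp4* had log2 differences of -1.38 and -1.09 and adjusted p of 0.0435 and 0.0148. Without TG replicate 1 they were -0.69 and -0.37 (adjusted p = 0.278 and 0.509, limma), and *Sfrp2* was -0.70 without WT replicate 1 (adjusted p = 0.265), so single mice moved both values in either direction. TG replicate 2 stood apart in skeletal muscle markers, whose sum was 905 FPKM there and between 207 and 360 FPKM in the other mice. It also had the highest level of the 9 fibroblast and progenitor markers among TG mice, whose sum was 1230, 1680 and 1330 FPKM in TG and 1940, 1450 and 1650 FPKM in WT iWAT. Of these markers 0 were called by limma, with a median log2 difference of -0.15 and none listed at 0, and the part of muscle or stromal cells in the *Sfrp* values was not tested. An antisense RNA shares exon bases with *Sfrp2* in GENCODE.

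*Sfrp5*, which is made by fat cells and binds Wnt5a, had 5.87, 5.51 and 4.11 FPKM in TG and 4.98, 6.96 and 3.64 FPKM in WT iWAT. Its groups overlapped fully and the log2 difference was 0.02 (95% interval -0.48 to 0.51). *Sfrp1*, *Dkk3* and *Dkk2* had log2 differences of -0.21, -0.38 and -0.04, with overlapping groups and adjusted p of 0.341, 0.282 and 0.903 (limma). *Dkk3* was lowest in TG replicate 1, at 0.745 FPKM, and between 1.69 and 2.80 FPKM in the other mice, and its difference was -0.14 without that mouse. *Wif1*, *Frzb*, *Dkk1* and *Dkk4* did not reach the filter. The sum over the 11 inhibitors was 28.2, 56.9 and 32.5 FPKM in TG and 75.4, 53.1 and 62.4 FPKM in WT iWAT, so that TG replicates 1 and 3 lay below all controls and TG replicate 2 among them.

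*Axin1*, the scaffold of the complex that destroys β-catenin, had 14.91, 14.61 and 13.91 FPKM in TG and 15.03, 16.21 and 16.05 FPKM in WT iWAT. The groups did not overlap, but TG replicate 1 and WT replicate 1 were almost equal and the log2 difference was -0.12 (adjusted p = 0.288, limma). *Axin2*, both a scaffold and a widely used target gene of β-catenin, had 8.52, 4.07 and 4.31 FPKM in TG and 4.32, 5.42 and 4.67 FPKM in WT iWAT. TG replicate 1 was the highest of all mice and TG replicates 2 and 3 were the lowest. The log2 difference was 0.14 (95% interval -0.43 to 0.70, adjusted p = 0.713, limma), and it turned to -0.16 without TG replicate 1, so no difference of *Axin2* was detectable.

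β-Catenin itself (*Ctnnb1*) was the most abundant member. It had 113, 109 and 117 FPKM in TG and 115, 108 and 104 FPKM in WT iWAT, a log2 difference of 0.05 (95% interval -0.14 to 0.24, adjusted p = 0.696, limma), and the sign turned with quantile normalization (-0.07). Its locus shares exon bases with *Ulk4* on the other strand. β-Catenin is controlled mainly through the stability of the protein, which RNA-Seq does not measure.

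*Tcf7l1* (Tcf3), on chromosome 6 from 72626380 to 72788956, is the TCF factor best known as a repressor of Wnt target genes in the absence of signal. It had 17.9, 16.9 and 16.0 FPKM in TG and 22.1, 21.2 and 21.8 FPKM in WT iWAT. All TG values were below all WT values, and the spread within each genotype was small. The log2 difference was -0.34 (standard error 0.07, 95% interval -0.51 to -0.17, adjusted p = 0.0213, limma), a ratio of means of 0.780. It missed the threshold in 4 of 15 other settings, with adjusted p of 0.0795 without TG replicate 3 and 0.0604, 0.0598 and 0.0676 without WT replicates 1, 2 and 3. The log2 difference stayed between -0.38 and -0.30 on leaving out single mice. An antisense RNA shares exon bases with *Tcf7l1* in GENCODE.

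*Tcf7l2* (Tcf4), the main TCF factor of many tissues, had 6.67, 6.70 and 7.59 FPKM in TG and 10.1, 8.39 and 7.37 FPKM in WT iWAT. TG replicate 3 lay above WT replicate 3, and the log2 difference of -0.26 did not pass the test (adjusted p = 0.162, limma).

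*Tcf7* (Tcf1) and *Lef1* are factors of T lymphocytes as well as mediators of Wnt signals. *Tcf7* had 23.8, 53.9 and 47.0 FPKM in TG and 48.2, 65.4 and 56.6 FPKM in WT iWAT. *Lef1* had 18.2, 29.6 and 26.4 FPKM in TG and 25.2, 29.8 and 29.2 FPKM in WT iWAT. Both were lowest in TG replicate 1 and overlapped between genotypes, with log2 differences of -0.51 and -0.20 and adjusted p of 0.249 and 0.440 (limma). Without TG replicate 1 the difference of *Tcf7* was -0.16 and that of *Lef1* was -0.0028 (adjusted p = 0.504 and 0.991). The 12 T lymphocyte markers summed to 251, 407 and 335 FPKM in TG and 337, 439 and 414 FPKM in WT iWAT, also lowest in TG replicate 1 and, within each genotype, highest in replicate 2, as were *Tcf7* and *Lef1*. Limma called 0 of these markers, and none was listed at 0. The part of lymphocytes in the levels of *Tcf7* and *Lef1* was not tested.

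**Figure D3:**
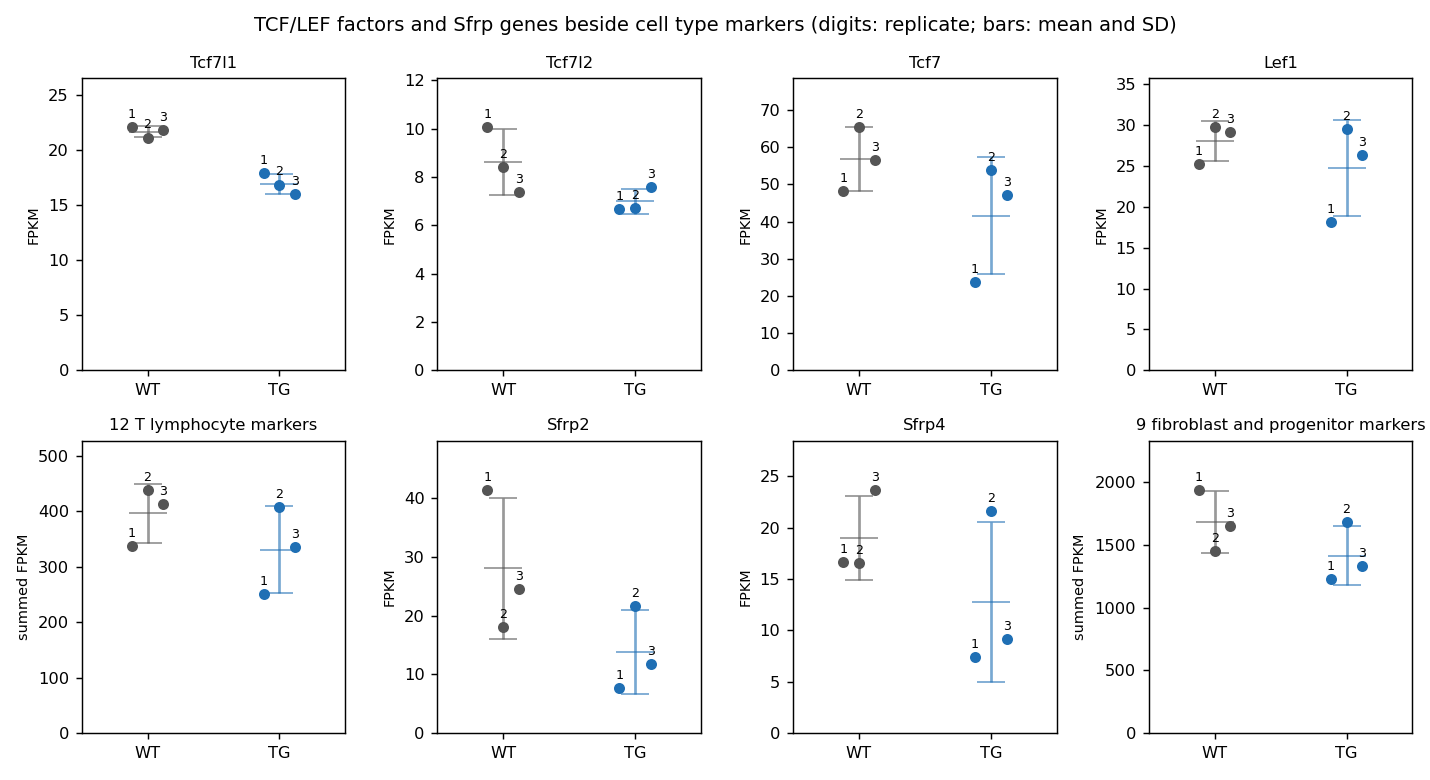
FPKM of the TCF/LEF factors, *Sfrp2* and *Sfrp4*, with the summed FPKM of 12 T lymphocyte markers and of 9 fibroblast and progenitor markers, in WT (grey) and TG (blue) mice; digits give the replicate and bars the mean and SD of n = 3. *Tcf7l1* is lower in all 3 TG mice, while *Tcf7*, *Lef1* and the T lymphocyte markers are lowest in TG replicate 1 and *Sfrp2* and *Sfrp4* reach 21.6 FPKM in TG replicate 2.

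Other genes of the pathway were taken from a list by their role in Wnt secretion, at the receptor, in the cytoplasm or in the nucleus. The list has 66 genes on 65 entries, since *Kremen1* and *Znrf3* share one. Of the 55 entries tested, 6 were higher and 6 lower in TG iWAT at an adjusted p under 0.05, together 21.8%, close to the 18.6% of all tested loci. Their median log2 difference was -0.09, and TG and WT values were separate at 22 of these 55, where 42.9% of all tested loci were.

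At the cell surface, *Apcdd1* had the largest fall of the list. It encodes a membrane-bound inhibitor that binds Wnt and Lrp5, and it is itself a target gene of the pathway. It had 22.9, 22.0 and 19.8 FPKM in TG and 59.6, 70.9 and 57.3 FPKM in WT iWAT. No TG mouse came near a control, and the log2 difference was -1.49 (standard error 0.11, adjusted p = 0.000549, limma), kept past the threshold in all 15 other settings. *Lgr6*, a receptor of R-spondins, rose. It had 7.21, 3.52 and 5.24 FPKM in TG and 1.71, 0.898 and 0.822 FPKM in WT iWAT, a log2 difference of 1.54 (standard error 0.25, adjusted p = 0.00775, limma), called in all settings. *Tspan12*, a tetraspanin that assists *Fzd4* in norrin signalling, rose from 39.2 ± 4.20 to 58.8 ± 6.29 FPKM (SD, n = 3 mice each; log2 difference 0.57, adjusted p = 0.0166, limma). Its exons also overlap an antisense RNA in GENCODE.

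*Wls*, which carries Wnt proteins to the surface of the secreting cell, fell from 31.8 ± 2.73 to 24.9 ± 0.818 FPKM (SD, n = 3 mice each; log2 difference -0.34, adjusted p = 0.0361, limma). In the cytoplasm, *Nkd1*, a feedback inhibitor that binds Dishevelled, had 1.94, 1.37 and 1.52 FPKM in TG and 2.68, 3.89 and 2.58 FPKM in WT iWAT (log2 difference -0.62, adjusted p = 0.0349, limma). *Celsr2*, a planar cell polarity cadherin, fell by 0.98 on the log2 scale and the Dishevelled gene *Dvl3* rose by 0.32 (adjusted p = 0.0172 and 0.0470, limma). The call of *Dvl3* was lost in 11 of 15 other settings, that of *Nkd1* in 8, that of *Wls* in 5, that of *Tspan12* in 3 and that of *Celsr2* in 1.

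In the nucleus, the Groucho family, whose proteins bind TCF factors or their partners, was split. *Aes* and *Tle2* rose, while *Tle1*, *Tle3* and *Tle4* had negative differences that did not pass the test. *Aes* had 718, 622 and 511 FPKM in TG and 323, 336 and 316 FPKM in WT iWAT, a log2 difference of 0.91 (adjusted p = 0.00701, limma). *Tle2* had 5.81, 6.08 and 6.43 FPKM in TG and 3.42, 3.25 and 3.80 FPKM in WT iWAT, a log2 difference of 0.66 (adjusted p = 0.00385, limma). Both were called in all 15 other settings, with no overlap between genotypes. With quantile normalization the log2 difference of *Aes* was 0.54. In GENCODE an antisense RNA overlaps exons of *Tle2*. *Tle3* was lower in every TG mouse, at 17.0, 24.7 and 25.2 FPKM against 34.6, 26.1 and 29.4 FPKM in WT iWAT (log2 difference -0.43, adjusted p = 0.122, limma). *Tle1* and *Tle4* had -0.15 and -0.16 with overlapping groups (adjusted p = 0.468 and 0.248). *Pygo1*, a coactivator of β-catenin, rose by 0.33, and *Bcl9* and *Bcl9l*, which link β-catenin to Pygo proteins, fell by 0.41 and 0.37 on the log2 scale (adjusted p = 0.0492, 0.0455 and 0.0390, limma). The calls of *Pygo1* and *Bcl9* were lost in 7 other settings and that of *Bcl9l* in 6. *Bcl9l* shares exon bases with *Cxcr5*, a gene of B lymphocytes, and 4 of the 8 B lymphocyte markers were lower in TG iWAT, with sums of 254, 322 and 279 FPKM in TG and 340, 415 and 530 FPKM in WT iWAT. The part of these cells in the *Bcl9l* values was not tested.

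**Figure D4:**
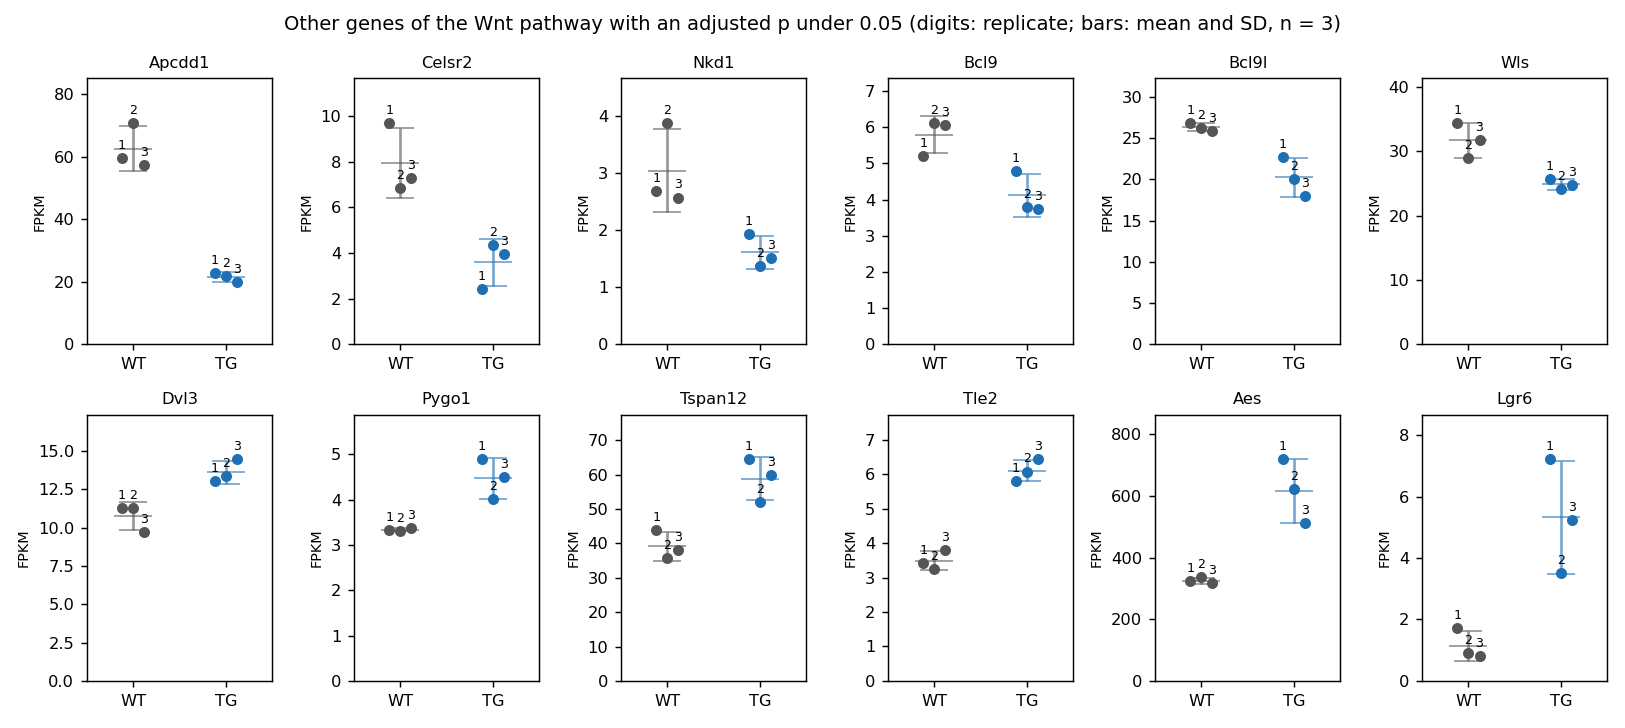
FPKM of the 12 other genes of the pathway with an adjusted p under 0.05 (limma), in WT (grey) and TG (blue) mice; digits give the replicate and bars the mean and SD of n = 3. The top row holds the genes that were lower in TG iWAT, from *Apcdd1* at -1.49 to *Wls* at -0.34, and the bottom row those that were higher, up to *Lgr6* at 1.54.

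A list of 18 genes often used as Wnt targets, in part the same genes, had 11 entries past the filter. Of these, *Apcdd1*, *Nkd1* and *Wisp2* were lower and *Jun* was higher at an adjusted p under 0.05, with a median log2 difference of -0.21 over the 11. These 4 made up 36.4% of the entries tested, where 18.6% of all tested loci were called, 7.03% lower and 11.6% higher. The list was chosen with earlier results of these data known, and *Apcdd1* and *Nkd1* are counted in the pathway list above too. Whether these shares differ was not tested. *Wisp2*, a secreted matricellular protein of stromal cells, had 2.57, 2.59 and 1.69 FPKM in TG and 5.10, 3.20 and 4.98 FPKM in WT iWAT (log2 difference -0.72, adjusted p = 0.0387, limma), a call that 7 of 15 other settings did not keep. *Jun*, which responds to many other signals, rose from 14.4 ± 1.51 to 21.4 ± 2.62 FPKM (SD, n = 3 mice each; adjusted p = 0.0202, limma). It missed the threshold without TG replicate 3, WT replicate 2 or WT replicate 3, at adjusted p of 0.0535, 0.0637 and 0.062. GENCODE also places an antisense RNA over exons of *Jun*. *Axin2* and *Lef1*, both members and both target genes of the pathway, are not in this list of 18 and so not in its share. Neither passed the test, as given above.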

How the data were processed

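Total RNA of iWAT from 6 mice (n = 3 per genotype) was made into unstranded TruSeq v2 libraries and sequenced as 100-base single reads. The authors aligned to mm10 with TopHat (TopHat2 2.0.9 and Bowtie2 2.1.0 in the submitters' processing notes) and quantified genes with Cufflinks 2.2.1. The deposited values are FPKM per gene entry and mouse. The annotation and the strand setting are not given in the sources used here, and counts were not used.

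Here, limma 3.58.1 (R 4.3.3) was run on log2(FPKM + 1) of entries whose FPKM averaged above 1 in TG or WT, with a variance trend and genotype as the sole term. Tests were two-sided with Benjamini-Hochberg adjustment, in place of Cuffdiff, which needs reads. The procedure was tested on simulated data, with changes larger than most of those reported here and placed only in loci above a set level. That run does not tell how often small differences, or those of low genes, are found. Mice are the replicates. Members and gene lists were chosen with earlier results of these data known. Named are members with an adjusted p under 0.05, the most abundant of each role, members without overlap and called genes of the other pathway list, at most 6 in each direction; further members are described by their values. Genes of a list on several entries were taken from the entry with the highest mean. Starts were made 1-based. Exon overlaps are from GENCODE M21. Beyond those given with single genes, antisense RNAs share exon bases there with *Axin2*, *Lef1*, *Rspo3* and *Wnt7b*. Other entries on the opposite strand do so with *Fzd5*, *Fzd6* and *Wnt11*. Alternatives were another pseudocount (0.1), other filters, scaling by quantiles or by median ratios, a constant variance prior, sample weights, a replicate block, leaving out single mice and, chosen after seeing the data, summed entries and all of these for the other pathway genes.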

Additional observations from a re-analysis of the deposited data

How the results depend on the processing

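Of the 32 member entries tested, 13 kept their direction and their side of the threshold in every alternative tried. The count of members called lower was 1 without an expression filter, and it ranged from 0 to 3 on leaving out single mice. It was 0 without WT replicate 1 and without WT replicate 2, while none was called higher in any of these fits. With fewer samples, they gave 780 to 1295 loci higher and 329 to 906 lower against 1352 and 822 with all mice. The count of members called higher was 1 without a filter (*Rspo4*) and 2 with sample weights (*Fzd8* and *Rspo1*), and the cause was not tested. Over all loci, sample weights gave 1611 higher and 1185 lower, and the fit without a filter gave 1151 and 638. Directions turned at 12 entries, none of them called in any setting. With quantile normalization *Fzd6*, *Wnt4* and *Ctnnb1* had log2 differences of 0.0139, 0.0276 and -0.0658. With sample weights *Axin2*, *Fzd6*, *Wnt10b*, *Sfrp5*, *Wnt4* and *Lrp6* had -0.0547, 0.0194, -0.0134, -0.18, 0.26 and 0.0776, and *Wnt5b* had -0.0388 with its entries summed. With each mouse left out, the ranges were -0.16 to 0.30 for *Axin2*, -0.18 to 0.15 for *Dkk2*, -0.0502 to 0.12 for *Fzd1*, -0.16 to 0.0482 for *Fzd4*, -0.0611 to 0.0257 for *Fzd6*, -0.12 to 0.0764 for *Lrp6*, -0.17 to 0.21 for *Sfrp5*, -0.12 to 0.22 for *Wnt10b*, -0.24 to 0.0528 for *Wnt2* and -0.31 to 0.20 for *Wnt4*. Whether the replicate numbers pair littermates is not given in the sources used here. The deviations of same-numbered samples had correlations of 0.013, 0.034 and 0.07, and no sample correlated best with its own number. These values show no strong pairing, and with 3 mice per genotype they cannot exclude a weak one. With the replicate block 2 members were again called lower and 0 higher, and *Hlx* kept a log2 difference of 3.51. The calls of *Celsr2*, *Bcl9*, *Nkd1*, *Pygo1*, *Dvl3* and *Wisp2* were lost with it, at adjusted p of 0.0567, 0.0983, 0.0755, 0.0839, 0.0933 and 0.0741. Scaling moved the median of all loci by less than 0.1. Low FPKM values rest on few reads, most of all in TG replicates 1 and 3.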
